A study of Oncorhynchus kisutch with 206 samples.

Results

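Long and short coho salmon (Oncorhynchus kisutch) caught in the Strait of Georgia in the fall of 2009 were compared for gene expression in the brain. The comparison takes 43 of the 206 brain arrays of the series, 1 fish per array: 21 fish labelled NM_SoG (the northern and middle Strait, 9 and 12 fish by the finer place label) and 22 labelled south_SoG. Within each place the fish were ranked by fork length. The 7 longest fish of each place form the long group (14 fish), the 7 shortest the short group (14 fish), and the 15 between them the middle group. The other arrays of the series cover river parr, smolts and ocean fish of spring, summer, fall and winter. Every fish was hybridised against 1 common pool of all brain samples, so each value is a ratio to that pool.

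All 43 fish were postsmolts sampled at sea in fall, and no treatment is labelled. They were 21 hatchery-born and 22 wild-born fish, 21 males and 22 females. By stock label 17 were ECVI, 13 Fraser, 12 S_Main and 1 Chilliwack_R. The sources used here do not give age or date of capture, so length cannot be split into age, time of capture and growth.

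Coho salmon that enter the sea in spring feed and grow through summer and fall, and body size by the end of that time is widely studied in relation to survival over the first winter. Growth of fish is governed by growth hormone from the pituitary and by insulin-like growth factors made mainly in the liver, under control of the hypothalamus, while appetite is set by hypothalamic neuropeptides. Whole-brain RNA averages these small nuclei with all other brain tissue, and fewer cells of a type cannot be told apart from less RNA per cell. The deposited tables name probes by position only (C for column and R for row on the array) and do not pair them with genes, so growth and appetite genes could not be looked up, the brain markers could not be checked, and no probe sequence is shown.

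Fork length ran from 17.1 to 24.0 cm in the short group (mean 21.74 ± 2.02 cm, SD, n = 14), from 23.2 to 25.9 cm in the middle and from 25.7 to 28.4 cm in the long group (26.6 ± 0.714 cm, n = 14). The short fish were spread over a wider range, because 3 wild fish measured 17.1, 18.7 and 19.2 cm and the next 21.6 cm. At the borders of the groups the gaps were narrow. In the northern-mid Strait the longest short fish measured 24.0 cm and the shortest middle fish 24.1 cm, and the longest middle fish 25.9 cm and the shortest long fish 26.0 cm. In the south the corresponding lengths were 23.1 and 23.2 cm, and 25.5 and 25.7 cm. Body mass, labelled for 38 of the fish, averaged 131.8 ± 34.6 g in the short group (n = 14) and 229.2 ± 24.6 g in the long group (n = 11). Fulton's condition factor (100 times the mass in g over the cubed length in cm) was 1.25 ± 0.0617 in short fish and 1.21 ± 0.0489 in long fish, a difference that was not tested.

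Length went together with origin. Of the 14 long fish 12 were from hatcheries, and of the 14 short fish 1 was (two-sided Fisher's exact test, p = 6.88e-05). In the northern-mid Strait all 7 long fish were hatchery fish and all 7 short fish were wild, so there length and origin cannot be told apart between the groups. Over the 43 fish, hatchery fish measured 25.77 ± 1.46 cm (n = 21) and wild fish 22.97 ± 2.27 cm (n = 22). Males numbered 8 of the long fish and 5 of the short fish (two-sided Fisher's exact test, p = 0.449). The 3 larger stock labels were present in all 3 length groups, ECVI with 6 short and 5 long fish, Fraser with 5 and 4, and S_Main with 3 and 5. The 43 arrays lay on 24 slides, and 3 slides held both long and short fish (7 fish in all).

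**Figure D1:**
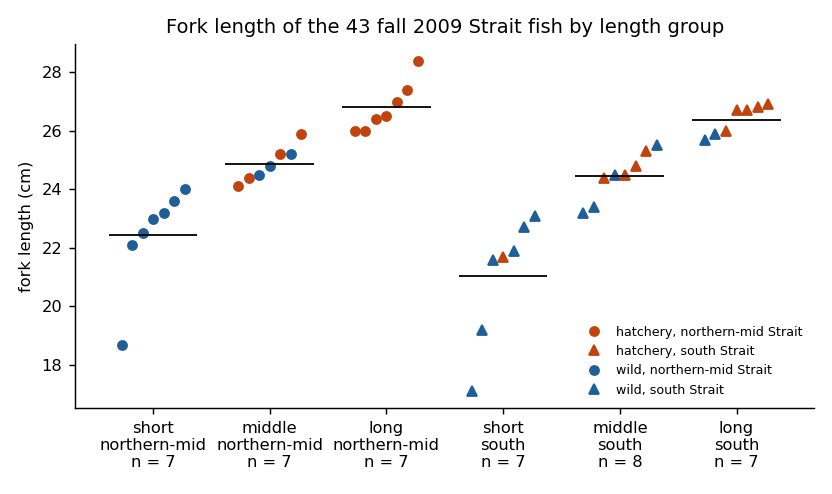
Fork length in cm (vertical axis) of each of the 43 fish, by place and length group (horizontal axis), with hatchery fish in orange and wild fish in blue and a line at each group's mean. The long groups hold 12 hatchery fish of 14 and the short groups 1 of 14, and 3 wild short fish lie under 20 cm.

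Each deposited value was taken as log2 of fish over pool. Neither the base nor the direction is stated by the labels, so both are likely and not certain: natural logs would make every fold larger, and pool over fish would swap higher with lower. Between 27.1% and 57.6% of the 43630 probes had no value on an array of these fish. Correlations between pairs of the 43 arrays over 14681 probes with a value on all of them ran from -0.16 to 0.87 with a median of 0.42. None of the 903 pairs lay below -0.3.

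No probe passed the test between the long and the short group. Of 26233 probes with values on at least 7 fish of each group, 0 (0%) had an adjusted p under 0.05 (limma with place as a term and slide as a random block, Benjamini-Hochberg adjustment), and the smallest adjusted p was 0.492. At an unadjusted p under 0.05 there were 2567 probes (9.79%), 1232 higher and 1335 lower in long fish. That share is above the 5% that independent probes without a difference would give, but probes move together across whole arrays, so it is a description and not a test. The median absolute difference between the groups was 0.20 log2 and the median standard error 0.22 log2: the typical difference was no larger than its own error.

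The size of what could have gone unseen is given by the intervals. For 21843 of the 26233 probes (83.3%) the 95% confidence interval of the difference lay within a 2-fold change in either direction, and for 26010 (99.1%) within a 4-fold change. An estimate beyond 2-fold was reached by 176 probes (0.671%). These intervals are for single probes, without adjustment for their number.

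The slope on fork length over all 43 fish gave the same count. Of 26229 probes with values on at least 22 fish, 0 (0%) passed at an adjusted p under 0.05 in limma, with a smallest adjusted p of 0.349. The unadjusted count was 2395 (9.13%), with 1221 rising and 1174 falling with length. Over a 5 cm step of length, 24338 probes (92.8%) had a 95% interval within a 2-fold change. With array weights, which give noisier arrays less influence, 3 probes passed, as described further on.

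With origin as a further term the excess of low p-values was no longer there. Among the same 26229 probes 0 (0%) were called by limma, the smallest adjusted p was 0.977, and 1250 (4.77%) had an unadjusted p under 0.05. The median standard error of the slope rose from 0.037 to 0.046 log2 per cm, since length and origin overlap and the fit has less to tell them apart with. The median absolute slope was 0.031 log2 per cm without the origin term and 0.033 with it. Hatchery against wild fish, a comparison added after the data were seen, behaved alike: limma with a term for place called 0 of 26229 probes (0%), with 2597 (9.9%) at an unadjusted p under 0.05, and 0 (0%) at equal length, with 1506 (5.74%). Neither label therefore gave a called probe, whether or not the other was in the fit.

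**Figure D2:**
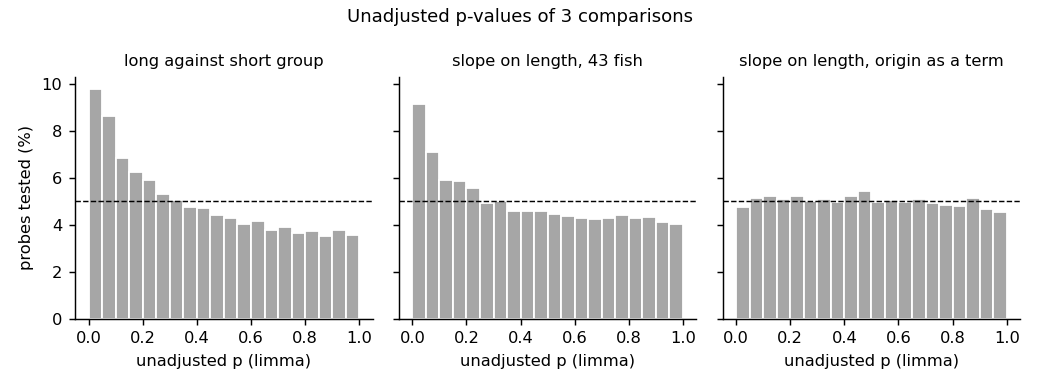
Percent of the tested probes (vertical axis) in each bin of unadjusted limma p (horizontal axis) for the long against the short group, the slope on length over 43 fish and the slope with origin as a term; the dashed line is at 5%, the height of evenly spread p-values. The lowest bin holds 9.79%, 9.13% and 4.77% of the probes.

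The share of low p-values differed between subsets of the fish. Without the 3 fish under 20 cm the slope over the remaining 40 fish called 0 probes in limma and 1279 of 25460 (5.02%) had an unadjusted p under 0.05, and long against short fish likewise fell to 1527 of 24527 (6.23%) with none called. Among the 22 wild fish 1631 of 26562 probes (6.14%) had an unadjusted p under 0.05, among the 21 hatchery fish 406 of 26300 (1.54%), and among the 15 middle fish 863 of 25491 (3.39%); none of these fits called a probe. The hatchery fish and the middle group also cover less length, with an SD within place of 1.41 and 0.7 cm against 2.26 cm in wild fish. With slide as a fixed term, which compares fish within slides, the share was 2.9% for the slope and 1.69% for long against short, again with 0 called in limma. Only 3 slides held both long and short fish (7 fish in all), and 11 of the 24 slides held 1 fish. These fits therefore rest on fewer fish than the others.

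**Figure D3:**
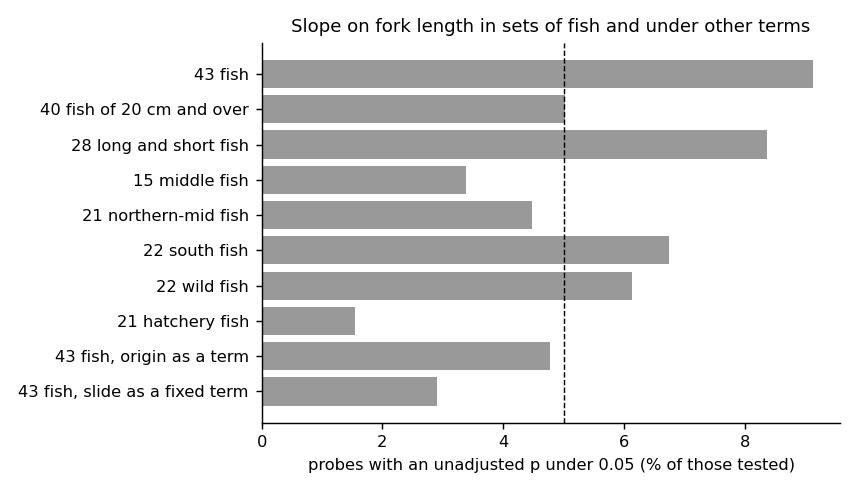
Percent of tested probes with an unadjusted limma p under 0.05 for the slope on fork length (horizontal axis), in sets of the fall 2009 fish and under other terms; the dashed line is at 5%. The share is 9.13% over 43 fish, 5.02% without the 3 fish under 20 cm, 4.77% with origin as a term and 1.54% in hatchery fish.

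Whether the slope differed between groups was tested directly. Between the northern-mid and the south Strait 0 of 26229 probes (0%) had a different slope (limma interaction, 660 or 2.52% at an unadjusted p under 0.05). Between hatchery and wild fish 0 of 26229 (0%) did (limma, 321 or 1.22% unadjusted). Between these 43 fall fish and the 35 Strait fish of summer 2009 0 of 26121 (0%) did (limma, 1321 or 5.06% unadjusted, smallest adjusted p 0.314). The median standard error of these differences was 0.075, 0.100 and 0.060 log2 per cm, larger than the median slope itself, so slopes that differ by that much could go unseen.

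The probes with the smallest p in each direction are given as examples, chosen among probes with values on at least 12 fish of each group (20891 probes), and for the slopes on all 43 fish (14681 probes). None of them was called. Probe C007R033 ran from -0.49 to 0.40 log2 in the short fish with a median of -0.16, from -8.1e-06 to 1.01 in the middle fish with a median of 0.28, and from -0.12 to 0.83 in the long fish with a median of 0.38. All 14 long fish lay above the median of the short fish, yet the groups overlapped, and the middle fish were level with the long fish. The difference between long and short fish was 0.51 ± 0.12 log2 (SE; 95% interval 0.27 to 0.74; limma, unadjusted p = 0.000127, adjusted p = 0.492). With slide as a fixed term the difference was 0.31 ± 0.28 log2, and with the fish of each place split at the middle of their ranking it was 0.29 log2. The slope over 43 fish was 0.090 ± 0.022 log2 per cm, and 0.077 ± 0.027 with origin as a term.

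Probe C106R079 was lower in long fish. Its ratio ran from -1.29 to 0.28 log2 in short fish (median -0.33), from -1.14 to -0.19 in middle fish (median -0.56) and from -2.62 to -0.34 in long fish (median -1.16). The groups again overlapped, although no long fish lay above the median of the short fish. The lowest values, -2.62 and -2.15, were those of long fish 2621 and 3020, whose arrays had the highest SDs of the 43. The difference was -0.80 ± 0.19 log2 (SE; 95% interval -1.19 to -0.41; limma, adjusted p = 0.492), and -0.44 ± 0.39 with slide as a fixed term. Without fish 2621 the difference was -0.72 log2, and without fish 3020 it was -0.73 log2. In hatchery fish its mean was -0.99 ± 0.59 log2 (SD, n = 21) and in wild fish -0.46 ± 0.36 (n = 22), and with origin as a term the slope was -0.079 ± 0.039 log2 per cm with an unadjusted p of 0.0511 in limma.

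For the slope, probe C101R129 had the smallest p among rising probes. Its ratio ran from -1.29 to 1.64 log2 in short fish (median -0.18), from 0.0035 to 1.02 in middle fish (median 0.37) and from -0.72 to 1.43 in long fish (median 0.76). The highest value of all belonged to a short wild fish of 22.1 cm, and without that fish the probe passed the test. The slope was 0.16 ± 0.035 log2 per cm (SE; limma, adjusted p = 0.349) over 43 fish, 0.17 ± 0.069 in the northern-mid Strait, 0.15 ± 0.030 in the south and 0.12 ± 0.042 with origin as a term. Fitted with fixed slides it was 0.033 ± 0.059, and within the 15 middle fish 0.021 ± 0.15, both smaller than their errors. In the summer fish of 2009 it was 0.0085 ± 0.039 and in the west coast fall fish -0.00035 ± 0.019, both within their errors of 0.

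Among falling probes C162R155 had the smallest p. Its ratio ran from -0.97 to 1.24 log2 in short fish (median -0.28), from -2.21 to 0.26 in middle fish (median -1.04) and from -1.95 to -0.05 in long fish (median -1.20). Middle and long fish covered much the same range, and the highest values were those of short wild fish. The slope was -0.17 ± 0.040 log2 per cm (SE; limma, adjusted p = 0.349), -0.18 ± 0.057 in wild fish and -0.039 ± 0.081 in hatchery fish; the test of that difference gave 0.10 ± 0.11 (unadjusted p = 0.345, adjusted p = 1 in limma). With slide as a fixed term the slope was -0.080 ± 0.049. With origin in the fit the smallest p belonged to C029R170, with a slope of 0.11 ± 0.028 log2 per cm, and to C184R003, with -0.13 ± 0.034 (limma, adjusted p = 0.977 for both).

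**Figure D4:**
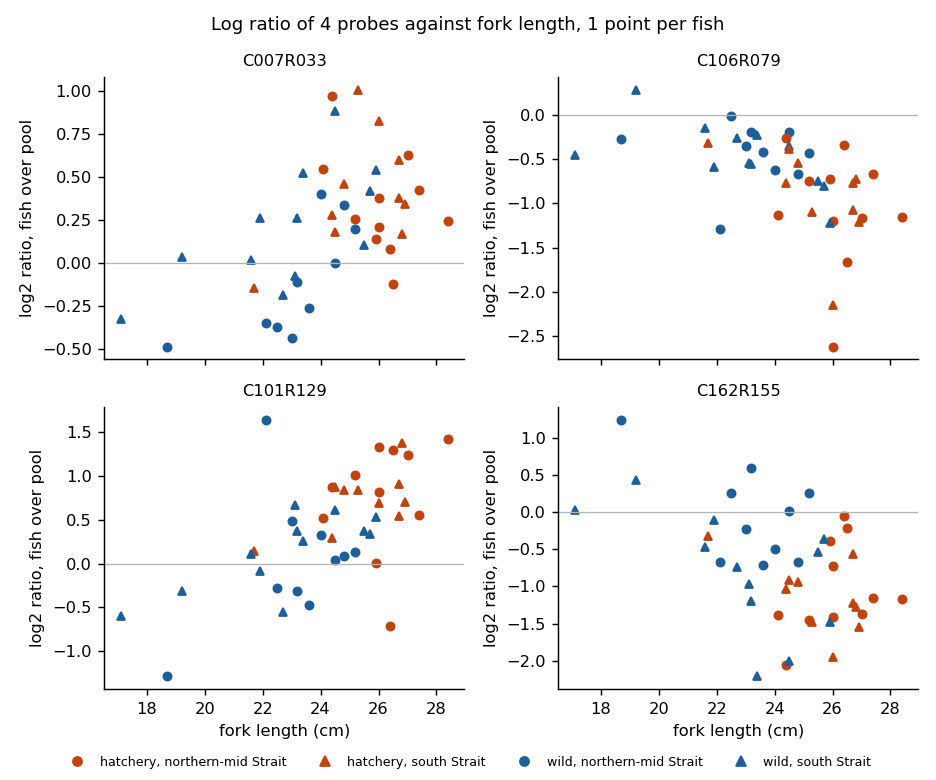
Log2 ratio of fish over pool (vertical axes) against fork length in cm (horizontal axes) for probes C007R033, C106R079, C101R129 and C162R155, 1 point per fish, coloured by origin and shaped by place. The length groups overlap in all 4 probes, and the 4 adjusted p-values are 0.492 or 0.349.

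The direction of weak differences was shared between the places. Of 1143 probes with an unadjusted p under 0.05 for the slope in the northern-mid Strait, 855 (74.8%) had a slope of the same sign in the south, against 62.7% of all 25480 probes. In the other direction the share was 1330 of 1738 (76.5%). The fish of the places differ, but they share the pool and some slides, and in both places hatchery fish were longer. Wild and hatchery fish shared the sign for 1023 of 1604 low-p probes (63.8%) against 56.7% of all. The 2492 low-p probes of long against short fish shared the sign with the slope within the middle group, whose fish they did not use, for 1324 (53.1%), against 52.8% of all probes. The middle fish, which cover little length, thus showed no more sharing than all probes did.

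Other fish of the series gave a length slope to set beside it. Among the 35 Strait fish of summer 2009 (13.2 to 24.1 cm) 0 of 29324 probes (0%) passed in limma and 3400 (11.6%) had an unadjusted p under 0.05. The 24 west coast fall fish, which ran from 16 to 32.8 cm, gave 76 called probes of 28849 (0.263%), and the 11 northern-mid fall fish of 2008 gave 0 of 27594 (0%) in limma, with 894 (3.24%) unadjusted. Low-p probes of the 43 fish had the same sign in summer for 1918 of 2385 (80.4%, against 63.3% of all probes), in west coast fall for 1580 of 2371 (66.6%, against 52.7%) and in fall 2008 for 1414 of 2316 (61.1%, against 51.7%). These sets share no fish with the 43, but they share the pool and some slides.

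Measures over whole arrays were also set against length, with lengths shuffled within place, or within slide for the values within slides. The 7 measures were the share of empty values, the SD and the median of the array, and the first 4 principal components of the 43 arrays (32.4%, 9.59%, 9.21% and 5.17% of the variance). None passed after adjustment: Pearson r ran from 0.108 to 0.29 and the smallest adjusted permutation p was 0.279. The sign of a component is arbitrary and was set so that it rises with length. Component 3 had r = 0.29 (permutation p = 0.0696) and component 2 had r = 0.277 (permutation p = 0.0798). Scores on component 2 went by slide. Fish scoring 26.9 to 52.3 lay on slides without lower-scoring fish of the 43. All fish on the other slides scored 9.06 or less. The high-scoring fish were all hatchery fish except wild short fish 3187. They included the longest of all, of 28.4, 27.4, 27.0 and 26.9 cm. Slide therefore overlaps with length and origin on component 2. How far slide sets its r was not tested. Within slides, over 32 fish on 13 slides, component 3 had r = 0.1 (permutation p = 0.667). There the 7 values of r ran from -0.247 for component 2 (permutation p = 0.291) to 0.399 for component 4 (permutation p = 0.152). Between the groups the SD of the array was 0.768 ± 0.119 in short and 0.932 ± 0.319 in long fish (permutation p = 0.0872). No probe had detectably more empty values in either group: 0 of 10580 probes (0%) passed Fisher's exact test after adjustment, and 119 (1.12%) had an unadjusted p under 0.05. Of 11 control rows tested between the groups, 9 were higher in long fish, with a median of 0.046 log2 and none at an unadjusted p under 0.05. Over all 26233 tested probes 13843 (52.8%) were higher in long fish, with a median of 0.022 log2.

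A pair of scores was added after these results were seen, both built on fish that are not among the 43. The first was a season score, the mean over 1099 probes higher in fall minus the mean over 570 probes lower in fall, from 35 fall and 51 summer fish, in which 2366 of 35555 probes (6.65%) were called between the seasons. Its relation to length did not pass (Pearson r = 0.166, permutation p = 0.289; Spearman rho = 0.135, permutation p = 0.393; n = 43). The means of long and short fish differed by -0.0030 log2 (permutation p = 0.988), while their medians were 0.413 and 0.285. The lowest scores of the 43 fish, -0.797, -0.511 and -0.367, were those of long fish 2621, 3020 and 2984. Their arrays also had the highest SDs, 1.51, 1.61 and 1.27. How far these arrays set the difference was not tested. The second was a stage axis, component 2 of the 163 other arrays, on which stage accounted for 70.8% of the variance. Its mean was -33.6 in parr, -17.7 in smolts, -15.0 in spring, 2.37 in summer, 24.4 in the other fall fish and 30.7 in winter fish. Length rose with stage too among the fish that define the axis. The Strait fish of summer 2009 had a median of 17.9 cm and the west coast fall fish 28.35 cm, and river parr and smolts were shorter. Stage and body length therefore cannot be told apart on this axis. The 43 arrays were projected onto it. A like relation of an axis with length in fall fish was known from earlier results of these data, so what follows is no independent finding.

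On average, longer fish lay further towards fall and winter fish on the stage axis, though in the south the group medians went the other way. The score ran from -11.7 to 29.8 in short fish (mean 13.4 ± 12.4, SD, n = 14), from 6.64 to 29.5 in middle fish (17.9 ± 6.82, n = 15) and from 3.79 to 38.7 in long fish (22.2 ± 8.97, n = 14). The groups overlapped widely, and 8 of 14 long fish lay above the median of the short fish of their place. In the northern-mid Strait the median was 12.5 in short and 21.9 in long fish. In the south it was 22.2 in short and 18.9 in long fish, while the means were 16.8 and 21.8. The difference between the group means, averaged over the places, was 8.71 (permutation p = 0.0453, adjusted p = 0.261 over 9 measures), so it did not hold after adjustment. Against length the Pearson correlation was 0.503 (permutation p = 0.00055, adjusted 0.00495 over 9 measures), while Spearman's rho was 0.316 (permutation p = 0.0413, adjusted 0.351). Only the Pearson correlation passed, and it gives more weight to the few very short fish.

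The relation was weaker without the 3 fish under 20 cm. They scored 10.4, -11.7 and -5.62 at 17.1, 18.7 and 19.2 cm, whereas the 40 longer fish scored between 0.352 and 38.7 with a median of 19.7. The fish of 18.7 and 19.2 cm lay below every longer fish and below the summer mean of 2.37, while the shortest of all did not. Without these 3 fish r was 0.218 (permutation p = 0.178) and rho 0.164 (permutation p = 0.316). Leaving out only the 2 fish farthest from the median length, those of 17.1 and 18.7 cm, gave an r of 0.371 (permutation p = 0.0152, adjusted 0.137). With the 17.1 cm fish alone left out r stayed at 0.503, and over all single fish left out it was lowest without the 18.7 cm fish, at 0.392. Leaving out the 3 fish also removes much of the range of length.

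Within the groups of fish the stage axis gave unequal values. In the northern-mid Strait r was 0.594 (permutation p = 0.00504, adjusted 0.0454, n = 21) and in the south 0.437 (permutation p = 0.0442, adjusted 0.398, n = 22). Spearman's rho was 0.443 in the northern-mid Strait (permutation p = 0.0453) and 0.18 in the south (permutation p = 0.42). In the 22 wild fish r was 0.583 (permutation p = 0.00592, adjusted 0.0533) and in the 21 hatchery fish 0.0808 (permutation p = 0.711, adjusted 0.883). The difference between the origins was not tested. With both place and origin taken out r was 0.444 (permutation p = 0.00742, adjusted 0.0668) and rho 0.2 (permutation p = 0.204). Within slides, over 32 fish on 13 slides, r was 0.335 (permutation p = 0.253). In other fish the same axis, to which they had contributed, gave r = 0.607 in west coast fall (permutation p = 0.00471, n = 24), 0.477 in the Strait in summer 2009 (permutation p = 0.00599, n = 35) and 0.433 in fall 2008 (permutation p = 0.185, n = 11).

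**Figure D5:**
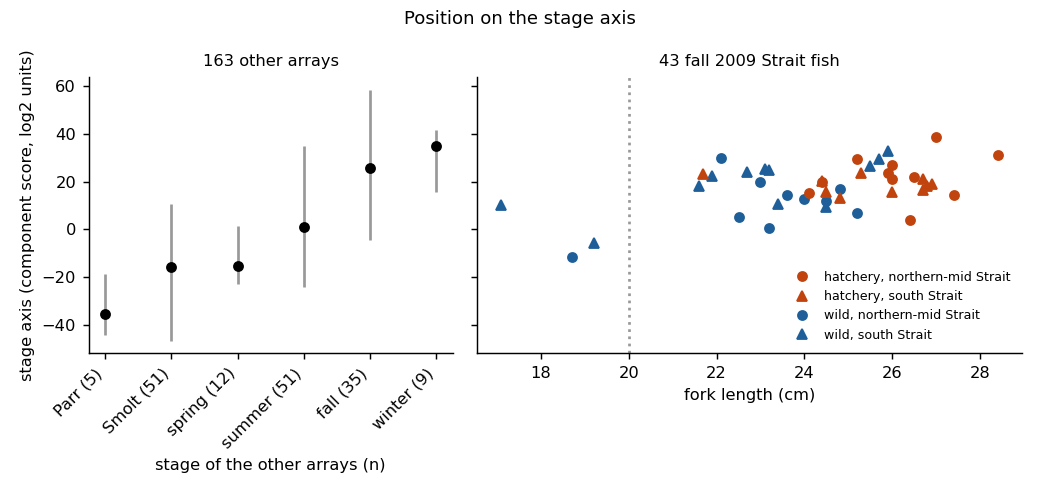
Score on the stage axis (vertical axis, log2 units summed over probes): left, lowest, median and highest score of the 163 other arrays by stage, with the number of arrays; right, score of the 43 fall 2009 Strait fish against fork length in cm, coloured by origin and shaped by place, with a dotted line at 20 cm. The fish of 20 cm and over lie between 0.352 and 38.7, and 2 of the 3 shorter fish lie below them.

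The probes that weigh most on the early side of the axis, those higher in parr and smolts, leaned the same way. They enter the score with large weights, so their lean is part of the same relation and no further support for it. Of these 548 probes 84 (15.3%) had a positive difference between long and short fish, with a median of -0.34 log2, against 42.3% and -0.06 over all 10942 probes of the axis. At an unadjusted p under 0.05 were 137 (25%) of them, against 10.7% over all. Of the 548 probes at the late end 253 (46.2%) were positive, with a median of -0.05 log2, so between the groups they lay close to all probes of the axis. For the slope over 43 fish the positive shares were 11.7% at the early end, 57.8% at the late end and 45.4% over all probes of the axis. With origin in the fit they were 12.6%, 56.9% and 46.6%, and the early probes had a median slope of -0.061 log2 per cm, as without it. The share of early probes at an unadjusted p under 0.05 went from 32.1% without origin to 13.7% with it, and that of all probes of the axis from 9.56% to 3.98%. None of these probes was called on its own, and their number is no measure of strength, since they were picked for moving together.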

How the data were processed

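Brain RNA of single fish (Alexa 555) and a pool of all brain samples (Alexa 647) was hybridised to 2-colour arrays, per the labels' protocols; no dye swap was made. The deposited log ratios were read as log2 values of fish over pool; the sources used here do not give scanning, background treatment, normalization, or why values are empty. Read so, log2 of the mean ratio of the most variable probes was 0.0654, against 1.16 for the other direction. In the least variable probes it was 0.209, against -0.068 for the other direction, so these probes do not favour the reading used. A natural log is not excluded (0.382 in the most variable probes). A second deposited table, treated as unit "other", held the same values and 18 control rows.

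Models were fitted probe by probe with limma 3.58.1 in R 4.3.3, without empty values, with place as a term and slide as a random block (consensus correlation 0.0994 for long against short fish and 0.122 for the slope), moderated variances and Benjamini-Hochberg adjustment at 0.05. The fits were tested on simulated data and against limma's own functions. Correlations used 100000 permutations (SciPy 1.17.1, NumPy 2.4.6), with lengths shuffled within place except as follows. Values within slides used shuffling within slide, and those with place and origin taken out used shuffling within both. For the stage axis in other fish, lengths were shuffled within place and year. The stage axis and season score used 163 and 86 other arrays.

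Each fish was 1 sample. Named probes were those with the smallest p in each direction, since none was called, with values on 12 of 14 fish per group or on all 43. Members and lists were chosen with earlier results of these data known. The gene lists of the plan could not be tested without gene names. The number of arrays limits the precision.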

Additional observations from a re-analysis of the deposited data

Results flagged for a closer look

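In 90 groups (15 measures or probes in the 6 groups of 7 or 8 fish of 1 place and length group), 11 had a fish far from the others by Dixon's test; chance marks about 1 in 20 groups. Components are in log2 units summed over probes.

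Hatchery fish 2621 of the northern-mid long group stood apart on 3 measures. Its array had an SD of 1.51 (the next 0.889), a median of 0.195 (the next 0.0298) and a component 1 score of 142.7 (the next 24.96). Without it 0 probes were called between long and short fish in limma, and 2112 (8.09%) had an unadjusted p under 0.05. In the south, hatchery fish 3020 of the long group had a component 3 score of 89.4 (the next 15.7) and a value of -2.15 log2 for C106R079 (the next -1.22). Its array also had an SD of 1.61 and a component 1 score of 140.7. Wild long fish 2984 of the south had an SD of 1.27 and a component 1 score of 95.7. Dixon's test did not mark these values. The highest SDs of the 43 arrays, in fish 3020, 2621 and 2984, were thus all those of long fish.

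Middle fish accounted for 3 more. Wild fish 3308 of the south had an array median of 0.0818 and a component 4 score of 76.9, and hatchery fish 3155 of the northern-mid Strait a component 4 score of 73.4.

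The rest were single probes in northern-mid fish. Wild short fish 2618 had 0.40 log2 for C007R033, hatchery long fish 3124 had -0.72 log2 for C101R129, and hatchery long fish 2626 had -1.71 log2 for C184R003.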

How the results depend on the processing

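The count of 0 called probes held between long and short fish under 16 alternatives and with each of 28 fish left out, for the slope with origin under 12 alternatives and 43 left-out fish, and for the 3 tests of different slopes, empty values and array measures under all theirs. For empty values the alternatives were each place alone. With 7 against 7 fish an exact test over 5213 or 4559 probes could hardly pass adjustment, so those counts say little. The exception to a count of 0 was the slope over 43 fish. Array weights called 3 probes there, chosen for naming after their values were seen: C153R119 (0.25 ± 0.041 log2 per cm), C186R137 (-0.29 ± 0.050) and C194R075 (-0.15 ± 0.026), with limma adjusted p from 0.0201 to 0.0272. The smallest adjusted p over the 20 alternatives ran from 0.0201 to 1. With fish left out, 0 to 1 probes were called: C101R129 without wild short fish 3166 (adjusted p = 0.0102 in limma, against 0.0102 to 0.572 over all left-out fish) and C186R137 without hatchery short fish 3250 (smallest adjusted p 0.0361). Within the 15 middle fish the slope of C162R155 turned to 0.38 ± 0.22 log2 per cm (adjusted p = 0.999 in limma). In the same 15 fish C007R033 (-0.030 ± 0.14) and C184R003 (0.0091 ± 0.22), named for other comparisons, also had the opposite sign, within their errors of 0. With slide as a fixed term the named values of long against short fish and of the slope over 43 fish kept their sign and shrank by over 1.5 times. With slide fixed, long and short fish are compared only on the 3 slides that held both, with 7 fish. The slope then rests on the slides of 2 or more fish, 32 fish on 13 slides.

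The unadjusted share ran from 1.69% (slide fixed) to 14.5% (sex as a term) for long against short fish, and quantile normalization gave 1701 probes (6.48%) where the values as deposited gave 2567. For the slope with origin it fell to 2.72% without wild fish 2593 and 2.81% without wild fish 2984, and rose to 7.4% without wild fish 3029. The relation of the stage axis to length kept its sign in every set. It was weaker, with an unadjusted permutation p above 0.05, without the 3 fish under 20 cm (r = 0.218), in hatchery fish (0.0808) and within slides (0.335). These sets hold fewer fish. After adjustment over 9 measures it also did not pass in the south (adjusted permutation p = 0.398) or without the fish of 17.1 and 18.7 cm (0.137). Nor did it pass in wild fish (0.0533) or with place and origin taken out (0.0668). Of these sets only the northern-mid Strait passed (0.0454). With single fish left out r ran from 0.392 to 0.561. The cause was not tested. No paired analysis was possible because each fish number belongs to 1 fish. With 14 fish per group, 83.3% of probes had an interval within 2-fold.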
